A study of Mus musculus with 18 samples.

Results

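The genes described here encode the collagens, the matrix metalloproteinases (Mmp), the tissue inhibitors of metalloproteinases (Timp) and the lysyl oxidases (Lox and Loxl) of mouse liver. The families were chosen with earlier results of these data known, and their members by name alone. Every protein-coding gene whose symbol belongs to one of these families was taken, which gave 75 of the 54532 genes measured. Of these, 44 were collagens, 22 metalloproteinases, 4 inhibitors and 5 lysyl oxidases. Their mRNA was measured by RNA-seq in livers of 18 male wild-type C57BL/6J mice, 1 library per mouse, each put on diet at about 1 month of age and fasted overnight before harvest. In the first experiment, 5 mice ate a control diet (Ctrl) and 5 a vitamin B2 (riboflavin)-deficient diet (B2D) for 1 month. In the second, 4 mice on control diet (Ctrl+FF) and 4 on deficient diet (B2D+FF) were fed for 9 weeks. All 8 of these received fenofibrate by gavage in weeks 7 to 9, the last time 2 hours before harvest. The unit is FPKM (fragments per kilobase of gene length, scaled for library size), and each experiment was scaled on its own, so the 2 are set side by side and tested apart. Fenofibrate, time on diet and table changed together between the experiments and cannot be told apart. Mice are numbered from 1 within each group, and a number pairs no mice across groups. Means are given ± SD over the 5 mice of a group without fenofibrate or the 4 with it.

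Collagens are secreted as trimers that build the scaffold outside the cell. Types I, III and V form fibrils, type IV forms the sheet of basement membranes, type VI forms beaded filaments, and types XV and XVIII carry sugar chains and lie at basement membranes. Lysyl oxidases crosslink collagen, metalloproteinases are zinc enzymes that cut it along with other surface and matrix proteins, and Timp proteins bind and block those enzymes. In the liver, stellate cells and portal fibroblasts are known as the main source of fibrillar collagen, and hepatocytes as a source of type XVIII collagen. Riboflavin is the precursor of the flavin coenzymes FMN and FAD, and fenofibrate is an agonist of the nuclear receptor PPARα.

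Sequences upstream of Mmp14 and Mmp15 are shown because, of the genes tested in both experiments, only these 2 had groups without overlap in each. Col27a1 also had groups without overlap in each, but its level with fenofibrate was too low to test. Mmp14 and Mmp15 both encode membrane-type metalloproteinases, which stay anchored at the cell surface. The Mmp14 stretch is chr14:54431348-54431597 and the Mmp15 stretch is chr8:95352046-95352267 (RefSeq, GRCm38.p6, plus strand in both), and each ends just before the gene's first base in RefSeq or in the deposited table, whichever comes first. Capitals mark the GC box, GGGCGG on either strand.
Mmp14: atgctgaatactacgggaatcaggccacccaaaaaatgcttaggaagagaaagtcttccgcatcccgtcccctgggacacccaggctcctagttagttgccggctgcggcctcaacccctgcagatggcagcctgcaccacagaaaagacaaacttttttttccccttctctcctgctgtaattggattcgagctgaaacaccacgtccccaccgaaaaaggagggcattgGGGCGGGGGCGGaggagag
Mmp15: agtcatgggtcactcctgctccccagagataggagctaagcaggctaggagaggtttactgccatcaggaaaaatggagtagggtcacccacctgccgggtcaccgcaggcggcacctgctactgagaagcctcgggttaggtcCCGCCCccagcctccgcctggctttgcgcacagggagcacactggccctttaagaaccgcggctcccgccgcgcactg
Mmp14 had 2 adjacent GC boxes close to its start and Mmp15 had 1. In the 250 bases before the start, this motif was present in 32.9% of 27025 RefSeq promoters and in 10 of the 15 tested genes with a window. The 15 had been filtered for their level in liver and the 27025 had not, so these shares are not a like comparison. The EGR1 motif GCGGGGGCG, which overlaps both GC boxes of Mmp14, was present in 2.56% of all promoters and among the tested genes in Mmp14 alone. The AP-1 motif TGANTCA (6.87% of all promoters) was found in Col6a1 alone among them, and TATAAA (13% of all promoters) in Col3a1 and Col13a1. The letters TTCNNNGAA (7.18% of all promoters) were in none of the 15 windows.
The last stretch shows how the genes of the 2 main type IV chains lie. Col4a1 and Col4a2 are transcribed head to head, and their annotated first bases lie within chr8:11312805-11312826 (GRCm38.p6, plus strand shown), so that the transcripts overlap by 22 bases, with 1 GC box in capitals.
Col4a1-Col4a2: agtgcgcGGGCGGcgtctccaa

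Between 15320729 and 21898502 reads were counted on genes per library, as recovered from the steps in the FPKM values. The mean Pearson correlation of a library with others of its group, across genes on log2(FPKM + 1), was from 0.966 (B2D 3) to 0.988. The summed FPKM of 11 hepatocyte marker genes was between 21610 and 51620 in every library, so these markers were abundant, as the liver label says. A gene was tested where its FPKM averaged 0.5 or more over the mice compared, by limma on log2(FPKM + 1), with p-values adjusted over all genes. Of the 75 genes, 18 passed without fenofibrate (12 collagens, 4 metalloproteinases and 2 inhibitors) and 13 of these passed with fenofibrate. The other 57 passed in neither experiment: 5 (Col2a1, Col19a1, Mmp1b, Mmp10 and Mmp20) had no read in any of the 18 livers and 10, these 5 among them, had at most 3 reads in any. The highest FPKM of any of the 57 in any liver was 1.06, of Col1a1. Levels were far apart within the family. Col18a1, which encodes the type XVIII chain from which endostatin is released, made up between 79.1% and 87.1% of the summed collagen FPKM of each liver. Mmp14, Mmp15 and Mmp19 together made up between 84.9% and 94.7% of the summed metalloproteinase FPKM.

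**Figure D1:**
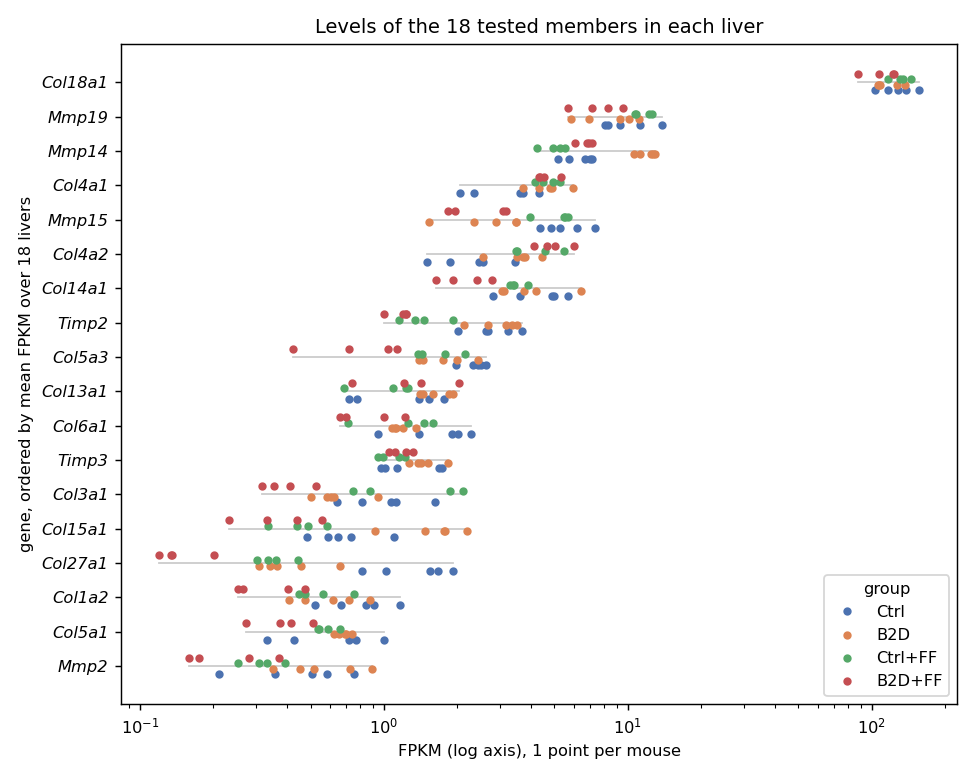
FPKM of the 18 tested genes in each of the 18 livers (log axis, 1 point per mouse, coloured by group, a grey line from the lowest to the highest mouse), ordered by mean. Col18a1 sits alone near 100 FPKM, from 88.2 to 157. The fibrillar genes Col3a1, Col27a1, Col1a2 and Col5a1 sit at 2.12 or below in every liver, and Col5a3, also fibrillar, reaches 2.625 in Ctrl.

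Over the family, 4 of the 18 genes tested without fenofibrate passed, Mmp14 and Col15a1 higher and Mmp15 and Col27a1 lower, while 2.7% of the 11574 genes tested passed (1.94% lower and 0.769% higher). Groups did not overlap for 3 of the 18, Mmp14 higher and Mmp15 and Col27a1 lower, against 4.98% of genes (2.89% lower and 2.08% higher). At an unadjusted p under 0.05 there were 9 of 18 (also Col3a1, Col4a1, Col4a2, Col5a3 and Col6a1) against 18.4% of genes. The median difference was -0.022 over the 18, with 9 lower and 9 higher, and -0.0013 over all genes. With fenofibrate, 2 of 13 passed, Mmp15 and Col14a1, both lower, against 4.45% of 11878 genes (2.21% lower and 2.24% higher). At an unadjusted p under 0.05 there were 6 of 13 against 21.2% of genes. Groups did not overlap for the same 6, with Mmp15, Col14a1, Col3a1, Col5a3 and Mmp19 lower and Mmp14 higher, against 14.3% of genes (6.44% lower and 7.82% higher). The median difference was -0.24 over the 13, with 9 lower and 4 higher, and 0.013 over all genes. These counts leave out the members below the filter, and Col27a1 and Col3a1 passed it only through their controls. The difference of the diet effect between the experiments passed for 0 of 17 genes by limma, against 0.228% of 11862 genes, and 4 had an unadjusted p under 0.05 (Col15a1, Mmp14, Col27a1 and Col4a1) against 11.9% of genes. The mean of Col27a1 was 3.259-fold higher in Ctrl than in B2D and 2.445-fold higher in Ctrl+FF than in B2D+FF. At its low level with fenofibrate, the log2(FPKM + 1) scale understates the change.

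**Figure D2:**
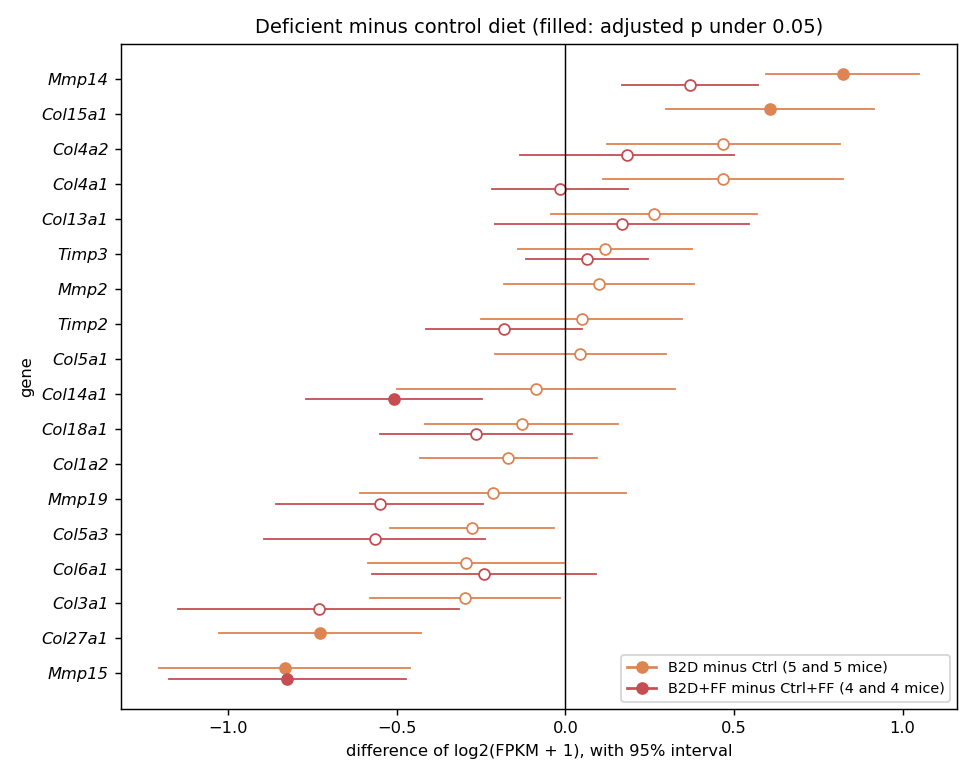
Difference of log2(FPKM + 1), deficient minus control diet, with its 95% interval from limma, for the 18 genes tested without fenofibrate (orange, 5 and 5 mice) and the 13 tested with it (red, 4 and 4 mice), where filled points have an adjusted p under 0.05. Mmp14 is at the top (0.82 and 0.37) and Mmp15 at the bottom (-0.83 in both).

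Among the membrane-type metalloproteinases, Mmp14 rose in riboflavin deficiency without fenofibrate and Mmp15 fell both without and with it. Mmp14 (ENSMUSG00000000957, chromosome 14 of GRCm38 from 54431612 to 54445364) encodes MT1-MMP, which cuts fibrillar collagen and activates the Mmp2 proenzyme at the cell surface. Its FPKM was 7.03, 5.76, 7.13, 5.15 and 6.65 in the 5 Ctrl livers and 12.9, 11.2, 12.4, 12.7 and 10.6 in the 5 B2D livers. Every B2D liver was above every Ctrl liver. In bulk liver, here and in all results that follow, a change in the number of cells of a type cannot be told apart from a change in RNA per cell. The mean was 6.34 ± 0.86 in Ctrl and 11.95 ± 1.03 in B2D, a 1.88-fold higher level with a difference of 0.82 on the log2(FPKM + 1) scale (standard error 0.10, limma adjusted p = 0.00422). With each library left out in turn it passed 10 of 10 times, with adjusted p from 0.00426 to 0.017. With fenofibrate, the FPKM was 4.95, 5.54, 4.25 and 5.26 in Ctrl+FF and 7.13, 6.95, 6.77 and 6.08 in B2D+FF. The groups did not overlap, but the difference of 0.37 (standard error 0.089) missed the threshold, with a limma adjusted p of 0.0512. The adjusted p was between 0.0397 and 0.129 over the alternatives, and it passed in 2 of them. The effect with fenofibrate minus that without was -0.45 (95% interval from -0.74 to -0.17), and this contrast did not pass across all genes (limma unadjusted p = 0.00397, adjusted p = 0.185).

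Mmp15 (ENSMUSG00000031790, chromosome 8 from 95352268 to 95375080), which encodes MT2-MMP, moved the other way in both experiments. Its FPKM was 7.34, 5.29, 4.35, 6.21 and 4.83 in Ctrl and 3.49, 1.53, 3.46, 2.34 and 2.88 in B2D. No B2D liver reached the lowest Ctrl liver. The mean fell from 5.60 ± 1.19 to 2.74 ± 0.83, a difference of -0.83 (standard error 0.17, limma adjusted p = 0.0273). The call was lost without Ctrl 1 (0.0668), Ctrl 2 (0.0738), Ctrl 4 (0.08) or B2D 4 (0.0665), within a range of 0.00639 to 0.0975 over all its alternatives. With fenofibrate, the FPKM was 5.53, 5.67, 3.98 and 5.49 in Ctrl+FF and 1.96, 3.08, 3.18 and 1.84 in B2D+FF, again without overlap. The mean fell from 5.17 ± 0.80 to 2.51 ± 0.71, a difference of -0.83 (standard error 0.16, limma adjusted p = 0.021). This call was lost without Ctrl+FF 1 (0.0732), Ctrl+FF 2 (0.0749), B2D+FF 1 (0.0573) or B2D+FF 4 (0.0528), and over its alternatives the adjusted p was between 0.00755 and 0.0749. The effects in the 2 experiments differed by 0.0083 with a 95% interval from -0.52 to 0.53. The ratio of Mmp14 to Mmp15 FPKM was from 0.829 to 1.64 in Ctrl and from 3.59 to 7.30 in B2D. It was from 0.894 to 1.07 in Ctrl+FF and from 2.13 to 3.64 in B2D+FF. The ratio was formed after both genes' values were seen and was not tested.

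**Figure D3:**
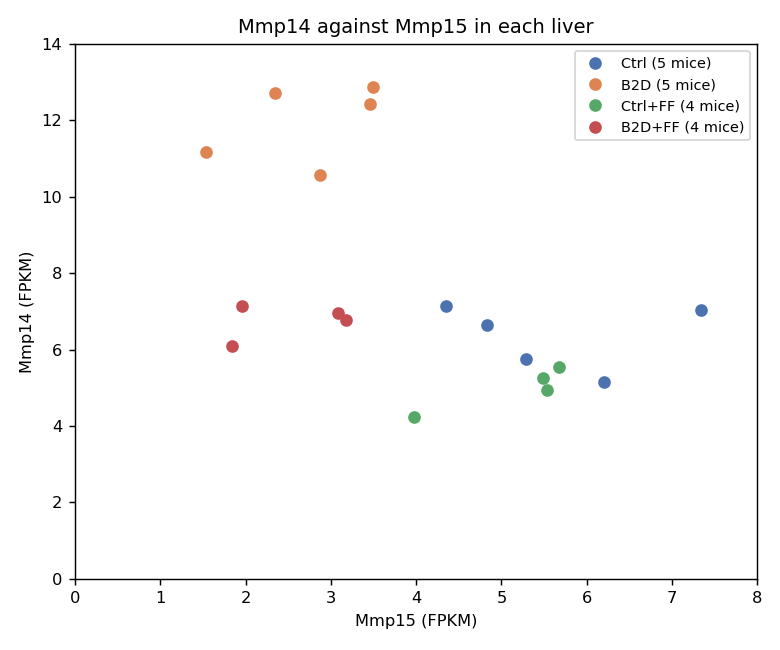
Mmp14 FPKM (vertical axis) against Mmp15 FPKM (horizontal axis) in each liver, 1 point per mouse, coloured by group. The 5 B2D livers lie at the upper left, with Mmp14 from 10.6 to 12.9, and the 4 B2D+FF livers lie to the left of and above their controls, with Mmp14 from 6.08 to 7.13.

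The other metalloproteinases gave few reads or overlapping groups without fenofibrate. Mmp19 (ENSMUSG00000025355, chromosome 10 from 128790910 to 128800824), a secreted metalloproteinase, had the highest mean FPKM of the metalloproteinases over the 18 livers. It overlaps Tmem198b on the other strand, which had at most 71 reads. Its FPKM was 9.29, 11.2, 8.28, 8.09 and 13.8 in Ctrl and 11.1, 5.85, 10.1, 6.94 and 9.25 in B2D, with a limma adjusted p of 0.553. It was 12.2, 10.8, 10.7 and 12.5 in Ctrl+FF and 5.70, 9.59, 7.11 and 8.26 in B2D+FF. All 4 B2D+FF livers were below the lowest control, but the difference of -0.55 (standard error 0.14) missed the threshold, with a limma adjusted p of 0.0553, from 0.0238 to 0.139 over its alternatives. It passed without B2D+FF 2 (0.027) and in 5 of 8 other settings, among them array weights (0.0268) and voom on recovered reads (0.0238). Mmp2, the gelatinase that MT1-MMP activates, averaged 0.483 ± 0.208 FPKM in Ctrl and 0.588 ± 0.220 in B2D, with a limma adjusted p of 0.723. It passed the filter through the B2D group and was below it with fenofibrate. Mmp9, the gelatinase known from neutrophils, had between 0 and 13 reads per Ctrl liver, 6 and 21 per B2D liver, 3 and 6 per Ctrl+FF liver, and 3 and 14 per B2D+FF liver. Mmp8, the neutrophil collagenase, had 17 reads over the 5 Ctrl livers and 1 over the 5 B2D livers, a ratio that rests on too few reads to be read as a fold. Mmp11 had between 8 and 39 reads per liver. Its gene overlaps Chchd10 on the other strand, which reached 13599 reads, and reads of the 2 genes cannot be told apart where they overlap unless strand was counted. The 4 neutrophil markers that could be tested, of 13 listed, lay higher in B2D. The summed FPKM of the list was from 2.35 to 3.97 in Ctrl and from 5.24 to 9.78 in B2D. Lcn2 alone passed (1.15 to 2.92 FPKM, limma adjusted p = 0.0477), and which cells made its RNA was not tested. Ly6g, a defining marker, was at 0 in all 10 livers, and 5 of the 13 had at most 3 reads in any of them. With fenofibrate the sum was from 6.56 to 11.2 in Ctrl+FF and from 9.82 to 21.2 in B2D+FF, with Mpo and Camp at 0. Their part in the metalloproteinase values was not tested.

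**Figure D4:**
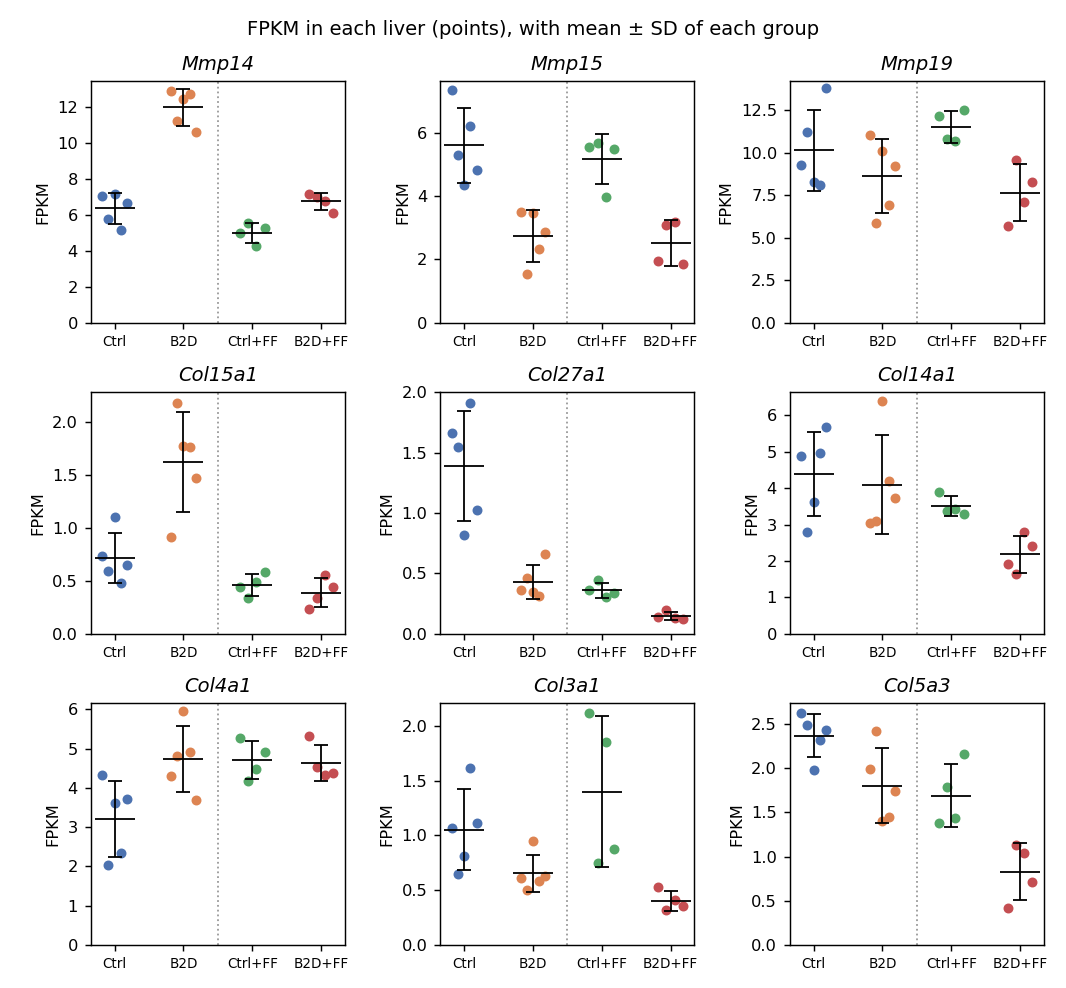
FPKM in each liver (points) for 9 genes, with the mean and SD of each group in black, and a dotted line between the 2 separately normalized experiments. Mmp14 is higher and Mmp15 lower in both deficient groups (Mmp14 missed the threshold with fenofibrate), Col27a1 is lower in B2D (0.427 against 1.39), and Col15a1 is higher in B2D (1.63 against 0.711).

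The summed level of the fibrillar collagens lay lower in the deficient groups. Without fenofibrate Col1a2, Col3a1, Col5a1, Col5a3 and Col27a1 were tested, and 1 of them passed, against 2.7% of all genes tested. The summed FPKM of the 11 fibrillar genes was 8.45, 6.11, 5.86, 9.17 and 6.61 in Ctrl and 5.30, 5.43, 4.91, 3.97 and 4.75 in B2D, without overlap. Without Col27a1 the sum was from 4.56 to 7.25 in Ctrl and from 3.66 to 4.97 in B2D, and the groups overlapped. Col27a1 (ENSMUSG00000045672, chromosome 4 from 63214004 to 63334991), a fibrillar chain known mainly from cartilage, fell. Its FPKM was 1.66, 1.55, 0.814, 1.91 and 1.02 in Ctrl and 0.363, 0.459, 0.341, 0.309 and 0.662 in B2D, with from 78 to 494 reads per liver. Every B2D liver was below every Ctrl liver, and the difference was -0.73 (standard error 0.14, limma adjusted p = 0.0195). It passed the filter through the Ctrl group. The call was lost without Ctrl 1 (0.057), Ctrl 2 (0.0668), Ctrl 4 (0.0598) or B2D 4 (0.0533), and over its alternatives the adjusted p was between 0.00111 and 0.0736. Col3a1, the type III chain, averaged 1.05 ± 0.37 FPKM in Ctrl and 0.653 ± 0.171 in B2D (limma adjusted p = 0.246). Col5a3, a type V chain, averaged 2.37 ± 0.24 and 1.80 ± 0.42 (limma adjusted p = 0.211). Other type V chains did not fall. Col5a1 averaged 0.650 ± 0.270 and 0.682 ± 0.043 (limma adjusted p = 0.874), and Col5a2, below the filter, 0.1705 ± 0.0439 and 0.1995 ± 0.0789. Col1a2, of type I collagen, averaged 0.823 ± 0.246 and 0.619 ± 0.190 (limma adjusted p = 0.475). Its partner Col1a1 was below the filter, with from 32 to 118 reads in Ctrl and from 24 to 91 in B2D.

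With fenofibrate, the fibrillar sum was 6.56, 4.48, 6.09 and 4.83 in Ctrl+FF and 2.79, 2.70, 3.09 and 2.18 in B2D+FF, again without overlap, and still so without Col27a1 (from 4.03 to 6.20 against 2.06 to 2.95). Of the fibrillar genes, Col3a1 and Col5a3 alone were tested here, and neither passed, against 4.45% of all genes tested. Col3a1 was 2.12, 0.749, 1.86 and 0.878 FPKM in Ctrl+FF against 0.526, 0.316, 0.414 and 0.353 in B2D+FF, with a difference of -0.73 (standard error 0.19) and a limma adjusted p of 0.0588. The 4 controls lay in 2 pairs far apart, and the B2D+FF livers lay below the lower pair. Col3a1 passed the filter through the control group. Its adjusted p was between 0.018 and 0.143 over the alternatives, and 3 of them passed. Col5a3 was 1.38, 1.79, 1.44 and 2.16 FPKM in Ctrl+FF against 0.423, 1.13, 1.04 and 0.717 in B2D+FF, without overlap (difference -0.57, standard error 0.15, limma adjusted p = 0.0608). Its adjusted p was between 0.0271 and 0.159 over the alternatives, and 3 of them passed. Col27a1 was below the filter at 0.360, 0.443, 0.300 and 0.335 FPKM in Ctrl+FF against 0.135, 0.200, 0.134 and 0.120 in B2D+FF, and with no filter its limma adjusted p was 0.0518. Col1a1 had 109, 24, 121 and 24 reads in Ctrl+FF and 28, 33, 38 and 15 in B2D+FF. Ctrl+FF 1 and 3, the libraries with the highest Col3a1, were thus also those with the highest Col1a1.

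Of the collagens that decorate fibrils, Col14a1 (ENSMUSG00000022371, chromosome 15 from 55307750 to 55520803) was lower in B2D+FF than in Ctrl+FF. It encodes type XIV collagen, which binds along fibrils. Its FPKM was 3.90, 3.38, 3.42 and 3.29 in Ctrl+FF and 1.92, 1.64, 2.78 and 2.41 in B2D+FF, without overlap. The difference was -0.51 (standard error 0.12, limma adjusted p = 0.042). With each library left out in turn it passed 1 of 8 times, without B2D+FF 3, and the adjusted p reached 0.12 without Ctrl+FF 1 and 0.103 without Ctrl+FF 2. It also missed the threshold without Ctrl+FF 3 (0.0877), Ctrl+FF 4 (0.0673), B2D+FF 1 (0.0965), B2D+FF 2 (0.0626) or B2D+FF 4 (0.0719), within a range of 0.0166 to 0.152 over all its alternatives. Without fenofibrate its FPKM was 4.89, 2.80, 3.61, 4.97 and 5.68 in Ctrl and 3.04, 3.11, 6.40, 4.21 and 3.74 in B2D, with a limma adjusted p of 0.84. Stellate cell markers, from the cells known to make much of this matrix, lay lower beside these collagens in B2D+FF. With fenofibrate 14 of 18 tested markers were lower, against 47.2% of all genes, with a median difference of -0.21. None passed by limma, and 1 had an unadjusted p under 0.05, against 21.2% of all genes. The summed FPKM of the list of 22, none at 0, overlapped, from 98.5 to 123 in Ctrl+FF and from 76.1 to 118 in B2D+FF. Markers of sinusoidal endothelium (14 of 18), macrophages (10 of 12), cholangiocytes (4 of 4) and myofibroblasts (6 of 9) were also mostly lower. Those of hepatocytes (9 of 11) and neutrophils (5 of 5) were mostly higher. The summed FPKM of the hepatocyte list overlapped, from 22930 to 26610 in Ctrl+FF and from 21610 to 25230 in B2D+FF. Lrat, the stellate cell enzyme of retinol storage, averaged 2.17 ± 0.50 and 1.48 ± 0.54 FPKM (limma adjusted p = 0.253). The part of stellate cell RNA in these values was not tested.

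Among the basement membrane collagens, Col15a1 rose in B2D without fenofibrate. Col15a1 (ENSMUSG00000028339, chromosome 4 from 47208161 to 47313167), encodes type XV collagen. Its FPKM was 0.735, 0.589, 1.10, 0.484 and 0.648 in Ctrl and 0.915, 2.19, 1.78, 1.77 and 1.48 in B2D. B2D 1 lay below Ctrl 3, so the groups overlapped, and the difference was 0.61 (standard error 0.14, limma adjusted p = 0.044). With each library left out in turn it passed 2 of 10 times, without Ctrl 3 or B2D 1. It was lost without Ctrl 1 (0.0915), Ctrl 2 (0.116), Ctrl 4 (0.126), Ctrl 5 (0.0784), B2D 2 (0.0919), B2D 3 (0.0775), B2D 4 (0.101) or B2D 5 (0.0693), within a range of 0.00721 to 0.138 over all its alternatives. With fenofibrate it was below the filter, at 0.463 ± 0.104 FPKM in Ctrl+FF against 0.389 ± 0.139 in B2D+FF. The effect with fenofibrate minus that without was -0.68 (95% interval from -1.07 to -0.30), which did not pass across all genes (limma unadjusted p = 0.00165, adjusted p = 0.13) in the fit of all 18 livers and with each library left out in turn passed only without B2D 1.

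Col4a1 and Col4a2, whose products join in the type IV trimer, ranked the livers alike at the extremes without fenofibrate. Col4a1 FPKM was 4.34, 2.04, 3.61, 2.34 and 3.71 in Ctrl and 4.32, 4.80, 5.96, 4.91 and 3.70 in B2D. Col4a2 FPKM was 3.46, 1.50, 2.55, 1.87 and 2.46 in Ctrl and 3.73, 3.50, 4.46, 3.80 and 2.56 in B2D. In both genes Ctrl 2 and Ctrl 4 were lowest and B2D 3 highest, and the groups overlapped. The differences were 0.47 for each (standard error 0.16 each), with limma adjusted p of 0.16 for Col4a1 and 0.149 for Col4a2. With fenofibrate Col4a1 averaged 4.71 ± 0.48 FPKM in Ctrl+FF against 4.65 ± 0.46 in B2D+FF, and Col4a2 averaged 4.26 ± 0.95 and 4.94 ± 0.79, with limma adjusted p of 0.941 and 0.494. There the genes differed in their highest liver, which was Ctrl+FF 1 and B2D+FF 1 for Col4a1 and Ctrl+FF 4 and B2D+FF 4 for Col4a2. The ratio of Col4a1 to Col4a2 FPKM was between 0.732 and 1.51 in every liver. Sinusoidal endothelial markers lay higher beside these genes in B2D. Without fenofibrate 14 of 18 were higher, with a median difference of 0.23, while 50.2% of all genes were lower. None passed by limma, and 3 had an unadjusted p under 0.05, against 18.4% of all genes. Their summed FPKM overlapped, from 77.2 to 112 in Ctrl and from 98.4 to 118 in B2D. None of the 18 was at 0. Their part in the Col4a1, Col4a2 and Col15a1 values was not tested.

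The most abundant collagen, Col18a1 (ENSMUSG00000001435, chromosome 10 from 77052178 to 77166548), was at 157, 103, 128, 139 and 117 FPKM in Ctrl and 137, 107, 108, 126 and 106 in B2D. It was at 145, 135, 117 and 131 in Ctrl+FF and 107, 88.2, 122 and 123 in B2D+FF. The groups overlapped in both experiments, with limma adjusted p of 0.629 and 0.268 and 95% intervals of the difference from -0.42 to 0.16 and from -0.55 to 0.019. Its gene overlaps Slc19a1 on the other strand, which had at most 487 reads against 12540 or more for Col18a1. Col6a1, of the type VI filament, averaged 1.70 ± 0.53 FPKM in Ctrl and 1.17 ± 0.11 in B2D (limma adjusted p = 0.268), and 1.25 ± 0.38 and 0.896 ± 0.262 with fenofibrate (limma adjusted p = 0.384). Col13a1, a transmembrane collagen, averaged 1.23 ± 0.46 and 1.64 ± 0.23 (limma adjusted p = 0.342), and 1.06 ± 0.26 and 1.35 ± 0.54 with fenofibrate (limma adjusted p = 0.614). Col8a1 of the short-chain collagens and Col7a1 of anchoring fibrils had at most 20 and 18 reads in any liver.

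The inhibitors and crosslinking enzymes gave no call. Timp2, which blocks Mmp14 and also helps it to activate Mmp2, was at 3.66, 2.01, 2.68, 2.61 and 3.24 FPKM in Ctrl and 3.53, 2.12, 3.33, 2.67 and 3.16 in B2D. These ranges nearly coincided, with a difference of 0.048 (95% interval from -0.25 to 0.35, limma adjusted p = 0.882). It averaged 1.47 ± 0.33 in Ctrl+FF and 1.17 ± 0.11 in B2D+FF (limma adjusted p = 0.346). Timp3, the inhibitor that binds to matrix, averaged 1.30 ± 0.37 and 1.48 ± 0.21 (limma adjusted p = 0.629), and 1.08 ± 0.13 and 1.17 ± 0.12 with fenofibrate (limma adjusted p = 0.696). Timp1, which rises in fibrotic liver, had between 0 and 7 reads in every liver and could not be compared. No lysyl oxidase passed the filter. Lox had from 13 to 51 reads per Ctrl liver, from 4 to 20 per B2D liver, from 0 to 7 per Ctrl+FF liver and from 0 to 3 per B2D+FF liver. Loxl1 had from 0 to 32 reads and Loxl2 from 15 to 57 over the 18 livers.

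Genes that work with this family and markers of liver cells were followed as lists. Of 179 list genes tested without fenofibrate 4 passed (2.23%, against 2.7% of all genes), and of 163 with fenofibrate 8 passed, all higher (4.91%, against 4.45% of all genes), so the share called was near that of all genes. The counts at an unadjusted p under 0.05 that follow stand beside 18.4% of all genes without and 21.2% with fenofibrate. In collagen biosynthesis and processing, 0 of 17 and 0 of 16 tested genes passed by limma (4 and 5 at an unadjusted p under 0.05). The summed FPKM of this list overlapped between the diets without fenofibrate, but was from 433.7 to 550.8 in Ctrl+FF and from 562.2 to 641.4 in B2D+FF, without overlap and higher, where the fibrillar sum was lower. Most of that sum was P4hb, a subunit of the collagen prolyl hydroxylase named here after its values were seen, at 380.4 ± 52.0 and 485.5 ± 43.7 FPKM (limma adjusted p = 0.137). Serpinh1, the collagen chaperone, averaged 3.13 ± 0.86 FPKM in Ctrl and 2.31 ± 0.27 in B2D (limma adjusted p = 0.249). The collagen receptors had 0 of 3 and 0 of 2 past the threshold by limma, and none at an unadjusted p under 0.05. Among other matrix glycoproteins and proteoglycans, 0 of 29 and 0 of 21 passed by limma (1 and 2 at an unadjusted p under 0.05), and fibronectin, Fn1, averaged 93.2 ± 15.6 FPKM in Ctrl and 111 ± 18 in B2D (limma adjusted p = 0.397). Of the genes that activate or restrain metalloproteinases, Serpine2, a protease inhibitor that blocks thrombin and plasminogen activators, fell from 1.07 to 0.361 FPKM (limma adjusted p = 0.0232, 1 of 16 tested). Serpine2 passed the filter only through the Ctrl group. Ctsl, the lysosomal protease cathepsin L, rose from 77.6 FPKM in Ctrl+FF to 134 in B2D+FF (limma adjusted p = 0.0182, 1 of 14 tested). In TGF-beta signalling, the known driver of collagen transcription, 18 of 22 were higher in B2D, 0 past the threshold by limma and 4 at an unadjusted p under 0.05. With fenofibrate 10 of 22 were higher, 0 passed and 6 had an unadjusted p under 0.05. Tgfb1 itself averaged 1.34 ± 0.28 and 1.59 ± 0.24 FPKM (limma adjusted p = 0.472).

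Markers of the cells that make or degrade matrix were read against the same shares of all genes. Acta2, the actin of activated stellate and smooth muscle cells, averaged 1.05 ± 0.45 FPKM in Ctrl and 0.644 ± 0.392 in B2D (limma adjusted p = 0.352). Its list of myofibroblast and portal fibroblast markers had 8 of 9 lower without and 6 of 9 lower with fenofibrate, 0 past the threshold by limma (2 and 1 at an unadjusted p under 0.05). Macrophage markers were lower for 11 of 12 in B2D, and C1qa and Clec4f, both known from Kupffer cells, fell (30.4 to 21.1 and 28.7 to 20.4 FPKM; limma adjusted p = 0.0275 and 0.0412). With fenofibrate 10 of 12 were lower and 0 passed by limma (2 at an unadjusted p under 0.05). Cholangiocyte markers had 0 of 5 and 0 of 4 past the threshold by limma (0 and 2 at an unadjusted p under 0.05). Stellate cell markers without fenofibrate were lower for 9 of 21, with 0 past the threshold by limma and 4 at an unadjusted p under 0.05. With fenofibrate 14 of 18 sinusoidal endothelial markers were lower in B2D+FF. Lyve1, the hyaluronan receptor of these cells, rose instead, from 5.38 FPKM in Ctrl+FF to 10.1 in B2D+FF (limma adjusted p = 0.0294). The neutrophil gene Retnlg rose from 0.301 FPKM in Ctrl+FF to 1.63 in B2D+FF (limma adjusted p = 0.028, 1 of 5 tested). Retnlg passed the filter only through the B2D+FF group. Among hepatocyte markers, 0 of 11 passed in B2D by limma (2 at an unadjusted p under 0.05), and Tat, Pck1 and Ass1 rose with fenofibrate (299 to 751, 542 to 975 and 656 to 1101 FPKM; limma adjusted p = 0.0188, 0.0407 and 0.0455). In the list of injury, profibrotic and AP-1 signals, 0 of 17 passed in B2D by limma (3 at an unadjusted p under 0.05). With fenofibrate 13 of its 16 tested genes were higher in B2D+FF, and 2 passed by limma (6 at an unadjusted p under 0.05). Its summed FPKM was from 280.3 to 317.9 in Ctrl+FF and from 372.5 to 397.7 in B2D+FF, without overlap. Junb and Jund, subunits of AP-1, rose with fenofibrate, from 3.94 to 10.8 and from 12.5 to 21.6 FPKM (limma adjusted p = 0.0461 and 0.0236).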

How the data were processed

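The authors prepared mRNA libraries from liver with the NEBNext Ultra RNA kit, aligned reads with STAR to mm10, used featureCounts for reads per gene and deposited 1 FPKM value per gene and mouse, which their methods call RPKM, in 2 tables with gene lengths and GRCm38 coordinates. Whether counting used strand is not given in the sources used here. The product of FPKM and gene length rose in whole steps (100% of values within 0.1 read), so reads were recovered. Genes averaging 0.5 FPKM or more were tested with limma 3.58.1 in R 4.3.3 on log2(FPKM + 1), moderated with a trend. All differences are on that scale, which understates changes of low genes. P-values were adjusted by Benjamini-Hochberg over all genes of a fit, threshold 0.05. The diet effects of the 2 experiments were compared by a contrast over 18 libraries fitted together. The script was tested on simulated data.

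The family, the 13 lists of 286 other genes and the tests were chosen with earlier results of these data known. Named are members past the threshold or without overlap when tested, the highest of each role, and fixed members of interest (among them Col1a1, Mmp2, Mmp9, Timp1 and Lox), with up to 4 called genes per list and Serpinh1, Acta2, Tgfb1, Lrat and Fn1. Other settings tried were no filter or an average of 5 FPKM or more, a pseudocount of 0.1, upper-quartile and quantile scaling, array weights, limma voom on recovered reads, all groups in 1 fit, unadjusted p, and each library left out. Levels of 3 reads or fewer were not read as a fold. Promoters matched 57 of 75 members by symbol. Mice of a group are separate animals.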

Additional observations from a re-analysis of the deposited data

Results flagged for a closer look

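Of 68 groups of 4 or 5 mice examined for the tested genes, 3 had a mouse far from the rest of its group, and chance flags about 1 in 20. Col3a1 in B2D 3 was 0.946 FPKM, against at most 0.627 in the other B2D livers. Mmp15 in Ctrl+FF 3 was 3.98 FPKM, against at least 5.49 in the other controls. Timp2 in B2D+FF 2 was 0.997 FPKM, against at least 1.20 in the others.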

How the results depend on the processing

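Without fenofibrate, the 4 genes called of the family became 9 at an unadjusted p under 0.05 and 1 (Mmp14) either with no filter or at a mean of at least 5 FPKM, and were 1 to 4 in the 10 fits that each left out a library. With 1 the call left was Mmp14, without Ctrl 1, Ctrl 2, Ctrl 4 or B2D 4. With fenofibrate, the 2 called became 6 at an unadjusted p, 0 with no filter, 4 with array weights and 6 with voom on recovered reads, and were 0 to 2 in the 8 fits that left out a library, with 0 without Ctrl+FF 1, Ctrl+FF 2, B2D+FF 1 or B2D+FF 4 and 1 without Ctrl+FF 3 or Ctrl+FF 4. The difference between experiments gave 0 called by limma, 4 at an unadjusted p, and 0 to 1 (Col15a1, without B2D 1) with a library left out. List genes called fell from 4 to 0 without and from 8 to 1 with fenofibrate when no filter was set. The no-filter and 5 FPKM fits test more or fewer genes, and the cause of the other changes was not tested. Over 488 single-gene alternatives, 435 kept direction and side of the threshold, 33 lost and 14 gained it, and 6 changed sign, all of genes not called and with a library left out: Timp2 without fenofibrate (0.048) was from -0.036 to 0.13, and Col4a1 with fenofibrate (-0.016) from -0.072 to 0.030. No paired analysis was possible because mouse numbers are unique to each animal and no label ties mice of different groups. Depth limits the 57 members below the filter.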
